A study of Mus musculus with 18 samples.

Results

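The 10 genes described here encode apolipoproteins, the proteins that coat blood lipid particles, and the transfer protein that loads lipid onto one of them. They are Apoa1, Apoa2, Apoa4, Apoa5, Apob, Apoc1, Apoc3, Apoe, Apom and Mttp, chosen by name from a table of 16873 mouse genes. Their RNA was read in hepatocytes of mice lacking Mtdh (knockout, KO) and of wild-type (WT) mice of matched age, all without tumors. Mtdh encodes metadherin, a protein known for its part in cancer and in NF-kappaB signalling. The cells were treated with TNFa, TGFb or CM, medium taken from Kupffer cells after Py8119-EVPs were given to them. All 6 combinations of genotype and treatment hold 3 libraries, 18 in total, and no group was untreated. Every value is therefore a level under 1 of the 3 treatments, and a treatment can only be compared with another treatment. Dose, duration, exact age, strain and the design of the knockout are not stated in the labels. The labels do not say whether the 3 libraries of a group came from 3 mice, so the p-values measure the spread between libraries, which may be technical.

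Hepatocytes make very low density lipoprotein (VLDL) by wrapping triglyceride around apolipoprotein B, which Apob encodes, while the microsomal triglyceride transfer protein, encoded by Mttp, moves lipid onto the growing chain. Apoa1 and Apoa2 encode the main proteins of high density lipoprotein (HDL), and Apom encodes a smaller HDL protein that carries sphingosine-1-phosphate. The products of Apoa4, Apoa5, Apoc1, Apoc3 and Apoe move between particles in the blood. The Apoa5 protein favours the breakdown of plasma triglyceride by lipoprotein lipase, the Apoc3 protein holds it back, and apolipoprotein E is the ligand through which liver receptors take up remnants.

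The labels were first checked against the genes that define them. The mean of Mtdh in KO libraries relative to WT libraries was 5.61% under TNFa, 7.15% under TGFb and 6.79% under CM. All 9 hepatocyte markers in the table were above 0 in every library, and their summed normalized value lay between 1499970 and 3221920. The sum of 15 Kupffer cell and macrophage markers was far smaller, yet higher in every KO library than in every WT library of the same treatment. It ran from 3590 to 4196 in WT and 6893 to 7834 in KO libraries with TNFa, from 2899 to 3506 and 5295 to 6452 with TGFb, and from 2569 to 3142 and 5158 to 5491 with CM. Of these markers, Timd4 was at 0 in all 3 WT libraries with TGFb, and Cd68 overlapped between genotypes under each treatment. The sum of 10 sinusoidal endothelial markers was also higher in KO. With TNFa it ran from 2269 to 2728 in WT and 4622 to 4807 in KO. It was 2639 to 2842 and 3428 to 3769 with TGFb, and 2168 to 2675 and 3409 to 3546 with CM. Cdh5 alone made up most of the TGFb sum, at 1527 to 1723 in WT and 2286 to 2660 in KO libraries. Pecam1, Lyve1, Clec4g and Kdr overlapped between genotypes under that treatment. Of the 10 endothelial markers, 3 were called higher in TNFa libraries, 1 in TGFb libraries and 1 in CM libraries, and 0 were called lower. The rise in the sum is therefore not a rise of every marker. The sum of 8 cholangiocyte markers was lower in KO with TNFa (7135 to 8511 in WT, 4965 to 6521 in KO). With CM these sums were 5491 to 8716 and 5298 to 5490, and with TGFb they overlapped. Sox9 made up most of the TNFa sum, at 6626 to 7839 in WT and 4466 to 6143 in KO libraries. Krt7 went the other way there (7.04 to 22.9 in WT, 24.5 to 31.9 in KO). Of 7 tested markers, 2 were called lower with TNFa and 0 higher, where 3.7% of tested genes were called lower. With TGFb and CM 0 were called. Estimated depth was between 19.4 and 35.6 M reads a library (M for 1e+06), and the least abundant member in any library still rested on about 674 estimated reads. In such bulk libraries, fewer cells of a type and less RNA per cell cannot be told apart.

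The members lie in 2 tight clusters and at 4 separate places. By the positions that the deposited table gives (mm39), chromosome 9 carries Apoa1 (chr9:46139878-46141764), Apoc3 (chr9:46144231-46146934), Apoa4 (chr9:46151994-46154757) and Apoa5 (chr9:46179931-46183217) within 43.3 kb, with Apoc3 on the minus strand and the other 3 on the plus strand. Chromosome 7 carries Apoc1 (chr7:19423406-19426585) and Apoe (chr7:19430034-19433113), both on the minus strand, within 9.71 kb. Apoa2 (chr1:171052623-171053948), Apob (chr12:8027648-8066835), Apom (chr17:35347973-35351026) and Mttp (chr3:137795615-137850729) stand alone. The Mttp span shares 1521 bases with Trmt10a on the other strand. No label says whether reads were counted by strand, so some reads of the shared stretch cannot be assigned with certainty.

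The sequences before 4 of the genes are shown because these genes moved in different ways in knockout cells. Apoa1 and Apob were the members that fell on average over the 3 treatments, Apob only at the threshold. Apoa2 rose under each treatment, and Apoa5 had the largest rise. The sequences come from the RefSeq promoter table for GRCm38.p6, in which 8 of the 10 members were found. They run 5′ to 3′ on the gene's strand (plus for all 4) up to the base before the first annotated start. On that build the windows are chr9:46228380-46228579 for Apoa1, chr1:171224804-171225053 for Apoa2, chr9:46268358-46268607 for Apoa5 and chr12:7977427-7977647 for Apob. Capitals mark letters that match a searched motif on either strand.
Apoa1: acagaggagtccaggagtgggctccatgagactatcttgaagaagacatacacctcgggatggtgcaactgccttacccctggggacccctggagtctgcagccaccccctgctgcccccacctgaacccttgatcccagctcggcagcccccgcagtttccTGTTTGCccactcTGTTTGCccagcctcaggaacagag
Apoa2: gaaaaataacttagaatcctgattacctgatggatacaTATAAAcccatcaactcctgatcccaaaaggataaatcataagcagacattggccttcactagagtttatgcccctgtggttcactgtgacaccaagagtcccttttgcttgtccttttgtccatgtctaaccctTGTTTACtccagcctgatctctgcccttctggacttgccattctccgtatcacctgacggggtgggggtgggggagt
Apoa5: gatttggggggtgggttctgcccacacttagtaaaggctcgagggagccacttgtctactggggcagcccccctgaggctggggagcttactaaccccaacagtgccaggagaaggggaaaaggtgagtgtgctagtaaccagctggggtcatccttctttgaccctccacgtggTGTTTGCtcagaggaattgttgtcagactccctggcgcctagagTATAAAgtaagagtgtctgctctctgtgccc
Apob: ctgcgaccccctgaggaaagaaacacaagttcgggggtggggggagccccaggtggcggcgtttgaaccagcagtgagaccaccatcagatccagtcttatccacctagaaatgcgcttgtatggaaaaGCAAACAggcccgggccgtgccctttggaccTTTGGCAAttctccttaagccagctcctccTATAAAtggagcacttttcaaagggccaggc
The motifs searched were TATAAA (the TATA box), TGTTTNC (FOXA factors), TTGCNNAA (C/EBP factors), AGGTCA (a nuclear receptor half-site), CAAAGTCCA (HNF4) and the NF-kappaB motif, and no matches overlapped. Windows of 6 members were searched, and those of Apoa4 (102 bases) and Apoe (250 bases) held 0 matches to any of these motifs. The FOXA letters stood in the 4 printed windows, at 38 and 25 bases before the end of the Apoa1 window, at 77 bases for Apoa2, at 75 for Apoa5 and, on the minus strand, at 92 for Apob. Of 27025 mouse promoters, 14.9% held them in a stretch as long as the Apoa1 window and 17.9% in one as long as the Apoa2 and Apoa5 windows. The TATA letters began 31 bases before the end for both Apoa5 and Apob, but 212 bases before it for Apoa2. A stretch of the Apob length held them in 10.4% of promoters and one of the Apoa5 length in 13.0%. The C/EBP letters were in the Apob window alone, on the minus strand at 61 bases (8.81% of promoters), and the last 3 motifs had no match. For Apoa1 and Apob these shares come from the first 200 and 221 of 250 upstream bases of every promoter. That leaves out the bases next to each start, so the shares are not for the same position. Such matches describe letters in a window and not binding.

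Levels were compared between genes per kilobase of transcript (GENCODE M21). The order of the medians over 18 libraries was Apoa2 (39713 normalized units per kb), Apoa1 (15620), Apob (13510), Apoc3 (8782), Apoe (7055), Apoa4 (3134), Apoc1 (2134), Apom (1122), Mttp (931) and Apoa5 (474). Only Apoa2 had a range over the libraries that did not overlap that of the next gene. Within libraries, 4 of the 9 neighbouring pairs kept their order in all 18 (Apoa2 over Apoa1, Apoe over Apoa4, Apoc1 over Apom and Mttp over Apoa5). The other 5 pairs exchanged places in 1 to 4 libraries, most often Apoa1 and Apob. Not divided by length, Apob ranked between 4 and 11 of all 16873 genes, since its transcript of 13934 bases collects many reads. The 10 genes together held between 0.898% and 1.28% of a library's summed values. The lowest library was one with TNFa for each gene except Apoa4 and Apom, which were lowest in a CM WT library. Apoa5 spanned the widest range, 3.70-fold from its lowest library (TNFa WT 3) to its highest (TGFb KO 3), and Apob the narrowest, 1.74-fold.

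**Figure D1:**
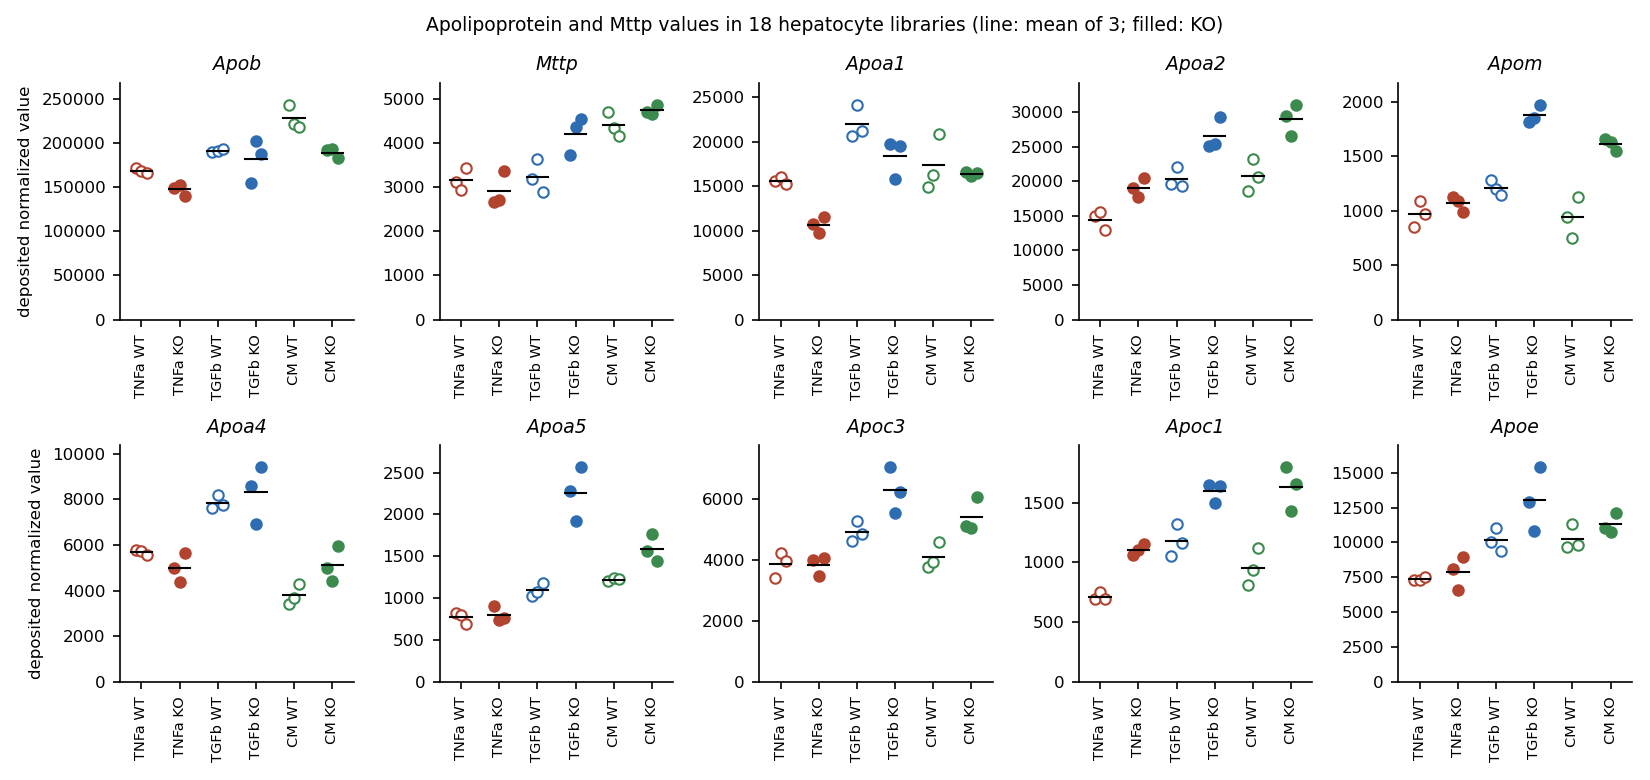
Deposited normalized value (y axes, from 0, a separate scale for each gene) of each of the 10 genes in the 18 libraries, by treatment and genotype (x axes). Open points are WT and filled points KO libraries, and lines are means of 3. Apoa5 is highest in the 3 TGFb KO libraries, between 1926 and 2569, with every other library at 1760 or below.

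The first question was what loss of Mtdh did to these genes under each treatment. A gene rose or fell where its Benjamini-Hochberg adjusted p from limma, over 14455 tested genes, was below 0.05, and all 10 members passed the filter on low values. Changes are log2 fold changes of the value plus 1, with their standard error and 3 libraries a group. Groups are said not to overlap where all libraries of 1 lay above all of the other. Between KO and WT this held for 24.8% of tested genes with TNFa, 26.7% with TGFb and 25.7% with CM. With TNFa, 2 members rose and 1 fell, where 7.89% of tested genes were called (4.19% higher, 3.7% lower). With TGFb, 7 rose and 0 fell (12.2% of tested genes called, 7.25% higher and 4.95% lower), and with CM, 6 rose and 0 fell (9.39% called, 5.62% higher and 3.77% lower). The median change of the members was 0.02 with TNFa, 0.37 with TGFb and 0.38 with CM, where the median of tested genes was 0.02, -0.01 and -0.01. These counts depend on how libraries are scaled. With libraries scaled to equal totals, which moves the median of all genes to -0.12 with TGFb and -0.09 with CM, the members split into 2 higher and 1 lower with TGFb and 3 higher and 1 lower with CM. Under that scaling the genes called over all tested genes moved from 1048 higher and 716 lower to 830 and 1494 with TGFb, and from 813 and 545 to 627 and 874 with CM. The TGFb count also fell to 2 without TGFb KO library 3, to 3 without TGFb WT library 3 and to 4 without TGFb KO library 1 or TGFb WT library 1, and the CM count to 3 without CM WT library 1.

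Apob, the structural protein of VLDL, was lower in KO than in WT cells on average, and Mttp, which loads it, was higher in KO cells with TGFb. With CM, Apob values were 243246, 221120 and 217905 in WT libraries and 191276, 192465 and 182939 in KO libraries. The CM groups did not overlap, as for 25.7% of tested genes, and the change of -0.27 ± 0.11 did not pass (limma adjusted p = 0.15). It passed with libraries scaled to equal totals (-0.34, adjusted p = 0.029) and with quantile normalization (-0.52, adjusted p = 0.0066). Quantile normalization sets a value by its rank in its library, and Apob ranked between 4 and 11. The part of those few top ranks in this value was not tested. With TNFa, WT libraries held 171499, 168103 and 165892 and KO libraries 149131, 152583 and 139764, again without overlap (-0.20 ± 0.11, adjusted p = 0.34). With TGFb the groups overlapped, at 189114, 190693 and 193019 in WT and 154438, 202059 and 187394 in KO libraries (-0.08 ± 0.11, adjusted p = 0.72). Averaged over the 3 treatments, where 20.7% of tested genes were called, Apob fell by 0.18 ± 0.07 (adjusted p = 0.046). That call sits at the threshold, since it was lost in 16 of 26 alternatives, among them 13 of the 18 that leave out 1 library. It was kept without TNFa KO library 2, TGFb KO library 2 or 3, or CM WT library 2 or 3.

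Mttp rose with TGFb by 0.38 ± 0.10 (adjusted p = 0.011), from 3180, 3642 and 2884 in WT libraries to 3740, 4362 and 4555 in KO libraries, which did not overlap. The Mttp call was lost without TGFb KO library 3 (0.33, adjusted p = 0.074), without TGFb WT library 3 (0.30, adjusted p = 0.099) and with equal totals (0.28, adjusted p = 0.068). With TNFa the KO libraries (2668, 2715 and 3379) spread across the WT values (3132, 2936 and 3437), and the change was -0.12 ± 0.10 (adjusted p = 0.56). With CM both genotypes were high, at 4713, 4347 and 4159 in WT and 4720, 4669 and 4880 in KO libraries, and differed by 0.11 ± 0.10 (95% interval -0.10 to 0.32). Averaged over treatments, the change of Mttp did not pass (0.12 ± 0.06, adjusted p = 0.15).

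The HDL genes parted: Apoa1 was lower and Apoa2 and Apom were higher in knockout cells. With TNFa, Apoa1 stood at 15620, 16007 and 15217 in WT and 10732, 9784 and 11531 in KO libraries. Relative to WT the KO mean was 68.4%, and Apoa1 fell by 0.55 ± 0.10 (adjusted p = 6.4e-04) and stayed called in all 15 alternatives. With TGFb all KO libraries (19783, 15788 and 19480) were below all WT libraries (20628, 24188 and 21158), but the change of -0.26 ± 0.10 did not pass (adjusted p = 0.10). Scaled to equal totals it did, at -0.37 (adjusted p = 0.012). With CM the genotypes overlapped, with WT libraries at 14960, 16237 and 20909 and KO libraries at 16540, 16097 and 16488 (-0.07 ± 0.10, adjusted p = 0.77). Averaged over treatments Apoa1 fell by 0.30 ± 0.06 (adjusted p = 4.1e-04).

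Apoa2 rose under each treatment, by 0.40 ± 0.10 with TNFa, 0.39 ± 0.10 with TGFb and 0.48 ± 0.10 with CM (adjusted p = 0.0074, 0.0068 and 0.0011). Its WT libraries were 14901, 15484 and 12952 with TNFa, 19597, 22025 and 19378 with TGFb, and 18513, 23271 and 20627 with CM. The KO libraries were 18970, 17734 and 20515 with TNFa, 25050, 25362 and 29354 with TGFb, and 29410, 26557 and 31089 with CM. No pair of genotypes overlapped within a treatment, where 24.8% of tested genes were apart with TNFa, 26.7% with TGFb and 25.7% with CM. The CM call held in all 15 alternatives. The TNFa call of Apoa2 was lost without TNFa KO library 3 (adjusted p = 0.053) or TNFa WT library 3 (adjusted p = 0.075), and the TGFb call without TGFb KO library 3 (adjusted p = 0.063), with equal totals and with quantile normalization.

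Apom rose with TGFb and CM. With CM the WT libraries were low and scattered, at 938, 750 and 1128, and the KO libraries close together at 1656, 1634 and 1545. Relative to WT its KO mean with CM was 172% (0.80 ± 0.13, adjusted p = 4.9e-05). With TGFb it was 1283, 1203 and 1145 in WT and 1812, 1856 and 1976 in KO libraries (0.64 ± 0.13, adjusted p = 5.6e-04). Both calls held in all 15 alternatives of each comparison. With TNFa the 2 genotypes overlapped, from 847 to 1086 in WT and 985 to 1128 in KO libraries (0.15 ± 0.13, adjusted p = 0.56).

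**Figure D2:**
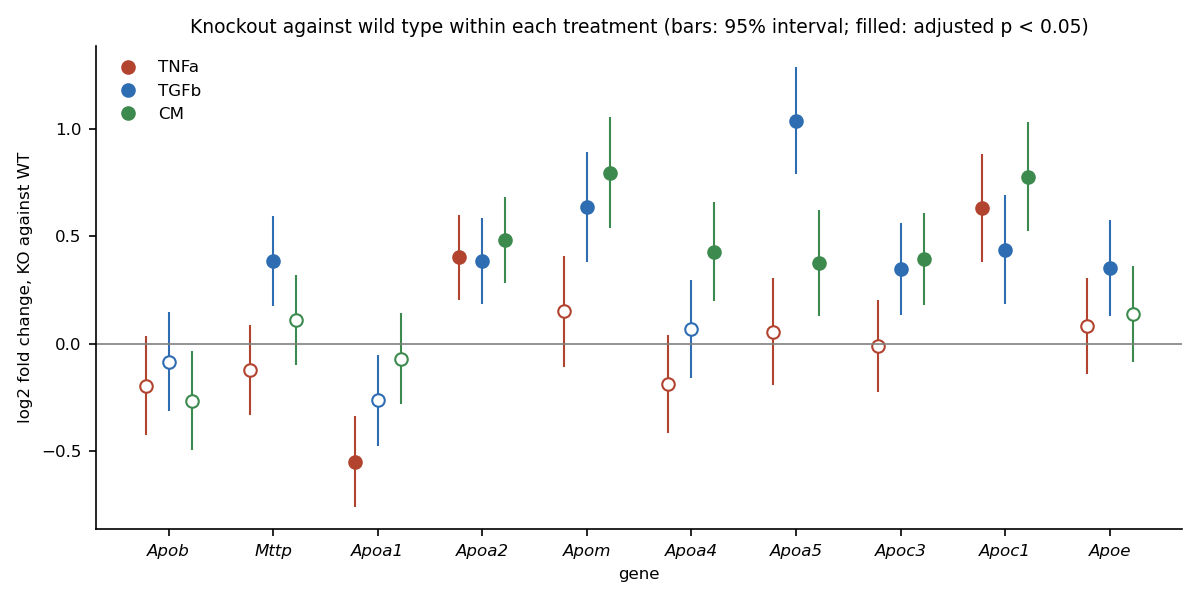
Log2 fold change of KO against WT (y axis) for each gene (x axis) within TNFa, TGFb and CM. Points are limma estimates from 3 libraries a group, bars are 95% intervals, and filled points have an adjusted p below 0.05. Apoa2 and Apoc1 are filled under all 3 treatments, and the only filled point below 0 is Apoa1 with TNFa.

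Apoa5 gave the largest change of the 10, and it was seen mainly with TGFb. In TGFb libraries it was 1027, 1068 and 1180 in WT cells and 2281, 1926 and 2569 in KO cells, a KO mean at 207% of WT. That rise of 1.04 ± 0.12 (adjusted p = 2.1e-07) held in all 15 alternatives. With TNFa, Apoa5 was low in both genotypes, at 818, 796 and 694 in WT and 903, 734 and 766 in KO libraries, and differed by 0.06 ± 0.12 (95% interval -0.19 to 0.30). With CM it was 1205, 1237 and 1224 in WT and 1561, 1760 and 1448 in KO libraries, a rise of 0.37 ± 0.12 whose adjusted p of 0.047 passed narrowly and was lost in 10 of 15 alternatives. Those losses included leaving out CM KO library 2 (adjusted p = 0.22), CM KO library 1, or any 1 of the 3 CM WT libraries, as well as equal totals (adjusted p = 0.13).

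The difference of knockout effect between treatments was tested directly, as an F-test over the 3 treatments, which called 1.7% of tested genes. Apoa5 was the only member it called (adjusted p = 0.0052). Its KO effect was greater with TGFb than with TNFa by 0.98 ± 0.17 (adjusted p = 0.0033, where 1.1% of tested genes were called), and that call held in all 20 alternatives. Between CM and TGFb it differed by -0.67 ± 0.17, which did not pass (adjusted p = 0.076, where 0.491% of tested genes were called). Apoa4 (F-test adjusted p = 0.076) and Apom (0.089) came next. The count of members called by the F-test rose to 2 without TNFa KO library 3 or TGFb KO library 2, and to 4 without CM WT library 3. For the other members a difference between treatments was therefore not shown, which does not mean that the effects were alike.

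Apoa4 rose with CM by 0.43 ± 0.11 (adjusted p = 0.011), from 3420, 3669 and 4268 in WT to 4969, 4418 and 5964 in KO libraries, without overlap. The Apoa4 call was lost without CM KO library 3 (0.31, adjusted p = 0.12), without CM WT library 1 (0.36, adjusted p = 0.076), with equal totals and in a fit of only the 2 groups. Apoa4 overlapped between genotypes with TNFa (5777, 5725 and 5545 in WT, 4992, 4388 and 5652 in KO libraries, -0.19 ± 0.11) and with TGFb (7627, 8175 and 7768 in WT, 8571, 6930 and 9427 in KO libraries, 0.07 ± 0.11). Neither change passed (adjusted p = 0.36 and 0.77).

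Apoc3, whose product slows triglyceride breakdown, rose with TGFb and with CM. With TGFb it went from 4634, 5287 and 4847 in WT to 7070, 5555 and 6252 in KO libraries (0.35 ± 0.10, adjusted p = 0.024). With CM it went from 3790, 3954 and 4605 to 5125, 5044 and 6067 (0.39 ± 0.10, adjusted p = 0.013). Neither pair of groups overlapped, but both calls were sensitive to single libraries. The TGFb call was lost without TGFb KO library 1 (adjusted p = 0.17) or 3 (0.062) and without TGFb WT library 1 (0.11) or 3 (0.080), and the CM call without CM KO library 3 (0.11) or CM WT library 1 (0.075). Both were also lost with equal totals and in a fit of only the 2 groups compared. With TNFa the genotypes overlapped, at 3424, 4234 and 3975 in WT and 3988, 3482 and 4056 in KO libraries (-0.01 ± 0.10, adjusted p = 0.97).

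Read along the chromosome 9 cluster, the 4 neighbours were not all called together in KO cells under any treatment. Differences between the genes were not tested. With TNFa the gene at the left end, Apoa1, fell while Apoc3, Apoa4 and Apoa5 did not pass. With TGFb, Apoa5 and Apoc3 rose and Apoa1 had a change below 0. With CM, Apoc3, Apoa4 and Apoa5 rose by 0.39, 0.43 and 0.37, while Apoa1 did not pass (-0.07). Apoa5, 40.1 kb from the start of Apoa1, carried the largest change, which was that with TGFb.

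**Figure D3:**
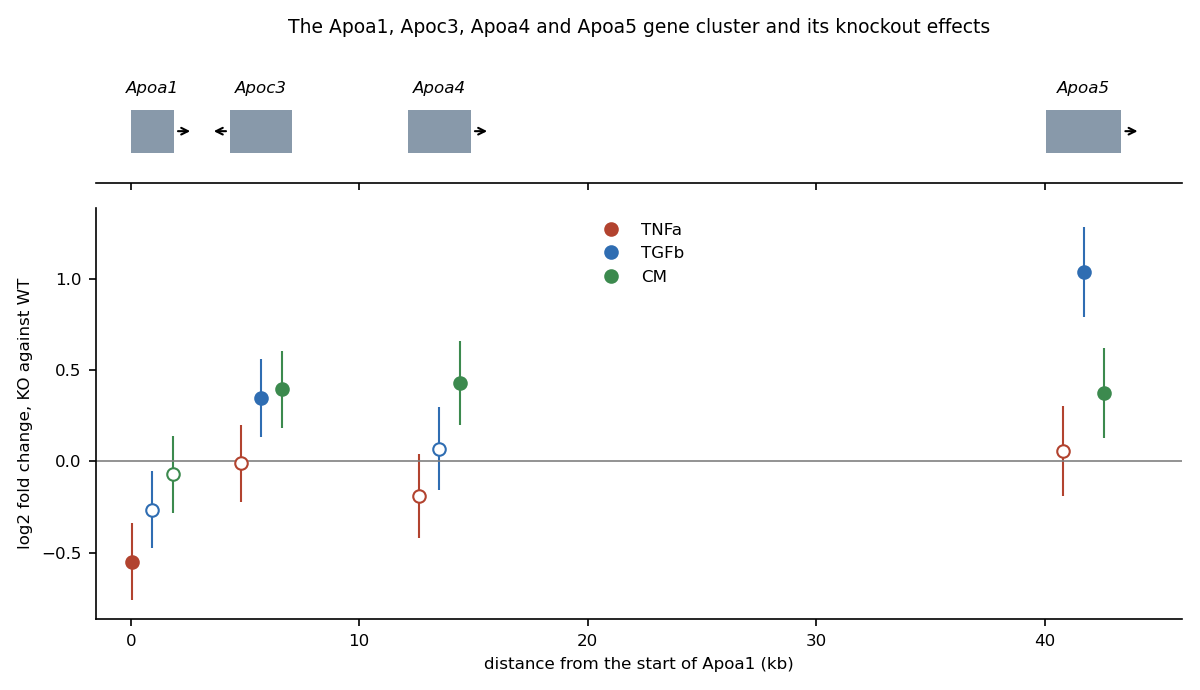
Upper panel, the Apoa1, Apoc3, Apoa4 and Apoa5 genes drawn to scale by distance from the start of Apoa1 (kb), with arrows for the direction of transcription. Lower panel, log2 fold change of KO against WT with 95% intervals within TNFa, TGFb and CM, drawn around each gene's middle and set apart sideways for legibility, with filled points for an adjusted p below 0.05. From Apoa1 to Apoa5 the TGFb values are -0.26, 0.35, 0.07 and 1.04.

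Apoc1 and Apoe, the chromosome 7 neighbours, differed in how steadily they responded. Apoc1 rose under each treatment, by 0.63 ± 0.12 with TNFa, 0.44 ± 0.12 with TGFb and 0.78 ± 0.12 with CM (adjusted p = 0.0010, 0.017 and 5.7e-05). In WT libraries it was 691, 752 and 692 with TNFa, 1057, 1325 and 1161 with TGFb, and 807, 936 and 1119 with CM. In KO libraries it was 1060, 1100 and 1152 with TNFa, 1652, 1495 and 1639 with TGFb, and 1802, 1434 and 1658 with CM. All KO libraries were above all WT libraries of the same treatment. The TNFa and CM calls held in all 15 alternatives of each comparison. The TGFb call was lost without TGFb KO library 1 (adjusted p = 0.068) or 3 (0.060), without TGFb WT library 1 (0.11) or 3 (0.056) and with equal totals (0.077).

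Apoe rose with TGFb by 0.35 ± 0.11 (adjusted p = 0.032), although its groups overlapped, at 10040, 11021 and 9376 in WT and 12884, 10829 and 15433 in KO libraries. The Apoe call rested on single libraries. It was lost in 8 of 15 alternatives, most clearly without TGFb KO library 3 (0.22, adjusted p = 0.26), and also without TGFb KO library 1, TGFb WT library 1 or TGFb WT library 3 and with equal totals (0.24, adjusted p = 0.16). With TNFa, WT libraries held 7305, 7294 and 7551 and KO libraries 8068, 6578 and 8988 (0.08 ± 0.11, adjusted p = 0.75). With CM, WT libraries held 9669, 11336 and 9827 and KO libraries 11004, 10780 and 12111 (0.14 ± 0.11, adjusted p = 0.52).

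Macrophages are known to make apolipoprotein E and C1 too. Of the 15 Kupffer cell and macrophage markers, KO cells had 10 called higher under TNFa, 11 under TGFb and 8 under CM, and 0 were called lower. Among them Clec4f, a Kupffer cell lectin, ranged from 10.7 to 60.0 in WT and 93.0 to 244 in KO libraries with TNFa, and Lyz2 from 608 to 644 and 1654 to 1869. In these same libraries with TNFa, Apoc1 rose by 0.63 ± 0.12 (limma adjusted p = 0.0010). Apoe overlapped there, between 7294 and 7551 in WT and 6578 and 8988 in KO libraries. With TGFb, Apoc1 rose by 0.44 ± 0.12 and Apoe by 0.35 ± 0.11 (adjusted p = 0.017 and 0.032). With CM, Apoc1 rose by 0.78 ± 0.12 (adjusted p = 5.7e-05), and Apoe did not pass (0.14 ± 0.11, adjusted p = 0.52). Whether cells of this type contributed to Apoc1 or Apoe was not tested. Hepatocyte markers moved too: 4 of 9 were called higher in KO cells with TNFa, 7 with TGFb and 5 with CM, with 0 called lower. Beside both marker lists, the share of tested genes called higher was 4.19%, 7.25% and 5.62%. Albumin values ran from 1810000 to 1920000 in WT and 2560000 to 2730000 in KO libraries with TGFb, and from 1350000 to 1420000 and 1290000 to 1360000 with TNFa. The part of this in the members' changes was not tested.

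Averaged over the 3 treatments, 6 members rose and 2 fell in KO cells (20.7% of tested genes called, 11.2% higher and 9.53% lower). With equal totals 5 rose and 2 fell, while over all tested genes 1614 higher and 1377 lower became 1365 and 2009. The largest rises were those of Apoc1 (0.62 ± 0.07, adjusted p = 8.0e-08), Apom (0.53 ± 0.07, 1.6e-06), Apoa5 (0.49 ± 0.07, 3.0e-06) and Apoa2 (0.42 ± 0.06, 8.9e-07), each called in all 26 alternatives. Apoc3 rose by 0.24 ± 0.06 (adjusted p = 0.0032), also in all 26. Apoe rose by 0.19 ± 0.06 (adjusted p = 0.029), a call lost in 10 of 26 alternatives, equal totals among them (0.14, adjusted p = 0.13). It was also lost without TNFa KO library 1 or 3, TGFb KO library 3, TGFb WT library 1 or 3, CM KO library 3, or CM WT library 1 or 3 (adjusted p between 0.0503 and 0.0864). Apoa4 (0.10 ± 0.06, adjusted p = 0.29) did not pass.

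The second question was how the treatments differed. The TNFa and TGFb comparisons, the TNFa and CM comparisons and the TGFb and CM comparisons of 1 genotype share libraries pairwise, so their values are given side by side and not as repeats of each other. In WT cells, 7 members were higher with TGFb than with TNFa and 0 lower, where 13.4% of tested genes were called (8.06% higher, 5.33% lower). The median over members was 0.46, against 0.00 over tested genes. In KO cells 9 were higher and 0 lower, with 22.4% of tested genes called (12.3% higher, 10.1% lower) and a median of 0.72 against -0.04. With equal totals, which moves the median of all genes to -0.11 in WT and -0.29 in KO cells, 6 and 7 members remained higher and 0 were lower. The genes called over all tested genes then went from 1165 higher and 771 lower to 873 and 1370 in WT cells, and from 1779 and 1458 to 1119 and 3756 in KO cells.

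With TGFb against TNFa, Apoc1 (0.72 ± 0.12, adjusted p = 7.4e-05), Apoa5 (0.51 ± 0.12, 0.0035), Apoa2 (0.49 ± 0.10, 4.3e-04) and Apoa1 (0.49 ± 0.10, 9.8e-04) had the largest rises in WT cells. Apoa4 rose by 0.47 ± 0.11 (adjusted p = 0.0035) and Apoe by 0.46 ± 0.11 (adjusted p = 0.0036). Apoc3 rose by 0.35 ± 0.10 (adjusted p = 0.022), a call lost without TNFa WT library 1 (0.26, adjusted p = 0.16), TGFb WT library 2 or TGFb WT library 3 and with equal totals. The VLDL pair did not pass. Apob differed by 0.18 ± 0.11 (adjusted p = 0.36) and Mttp by 0.03 ± 0.10 (95% interval -0.18 to 0.24). In KO cells the same contrast gave Apoa5 its largest value, 1.49 ± 0.12 (adjusted p = 8.6e-11), followed by Apom (0.82 ± 0.13, 8.0e-06), Apoa1 (0.78 ± 0.10, 8.0e-07), Apoa4 (0.73 ± 0.11, 8.5e-06) and Apoe (0.72 ± 0.11, 6.1e-06). Apoc3 (0.71 ± 0.10, 4.1e-06) rose as well. Mttp rose in KO cells by 0.53 ± 0.10 (adjusted p = 2.0e-04). Apoc1 (0.53 ± 0.12, adjusted p = 0.0018) and Apoa2 (0.48 ± 0.10, 3.8e-04) also rose, but neither call held with equal totals (adjusted p = 0.10 for each). Apob was higher in each TGFb KO than in each TNFa KO library, in a contrast where 34.1% of tested genes did not overlap. It did not pass (0.29 ± 0.11, adjusted p = 0.062). Its sign depended on scaling, since quantile normalization gave -0.34 (adjusted p = 0.047).

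CM against TNFa moved Apob and Mttp and turned Apoa4 the other way. In WT cells 6 members were higher and 1 lower (12.3% of tested genes called, 6.81% higher and 5.46% lower), with a median of 0.42 against 0.04 over tested genes. In KO cells 9 were higher and 0 lower (12.7% called, 8.38% higher and 4.32% lower), with a median of 0.58 against -0.02. With equal totals, which moves the median of all genes to -0.17 in KO cells, the split was 5 higher and 1 lower in WT and 8 higher and 0 lower in KO cells. Over all tested genes 985 higher and 789 lower became 858 and 1062 in WT cells, and 1211 and 624 became 878 and 1906 in KO cells (1158 and 928 with quantile normalization). Apob rose by 0.43 ± 0.11 in WT cells (adjusted p = 0.0096), from between 165892 and 171499 with TNFa to between 217905 and 243246 with CM. That call was lost with quantile normalization (0.29, adjusted p = 0.14) and in a fit of only the groups compared (adjusted p = 0.15). Its rise in KO cells, 0.36 ± 0.11 (adjusted p = 0.031), was lost in 8 of 15 alternatives, which include 5 of the 6 that leave out 1 library, and became -0.13 with quantile normalization. Mttp rose by 0.48 ± 0.10 in WT (adjusted p = 0.0017) and 0.71 ± 0.10 in KO cells (adjusted p = 7.2e-06), and both calls held in all 15 alternatives. Apoa4, the 1 member that fell, dropped by 0.59 ± 0.11 in WT cells (adjusted p = 3.8e-04), while in KO cells it stood at 0.03 ± 0.11 (95% interval -0.20 to 0.26). Apoa5 rose by 0.67 ± 0.12 and 0.99 ± 0.12 in WT and KO cells (adjusted p = 2.2e-04 and 5.2e-07). Apoa2 (0.52 ± 0.10, adjusted p = 3.0e-04), Apoe (0.47 ± 0.11, 0.0032) and Apoc1 (0.41 ± 0.12, 0.026) rose in WT cells, the Apoc1 call being lost without TNFa WT library 1 or 3 or CM WT library 2 or 3 and with equal totals. In KO cells the same 3 rose by 0.60 ± 0.10, 0.53 ± 0.11 and 0.56 ± 0.12 (adjusted p = 3.4e-05, 8.2e-04 and 0.0019). Apoa1, Apoc3 and Apom did not pass in WT cells (adjusted p = 0.46, 0.69 and 0.86) and rose in KO cells by 0.62 ± 0.10, 0.49 ± 0.10 and 0.59 ± 0.13 (adjusted p = 5.8e-05, 0.0011 and 0.0011). The difference between genotypes in these changes equals the difference of the KO effect between CM and TNFa, where 0.63% of tested genes and 0 members were called (adjusted p from 0.062 for Apoa4 upward).

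CM against TGFb separated Apoa4 most clearly. It was between 7627 and 8175 in WT libraries with TGFb and between 3420 and 4268 with CM, and fell by 1.06 ± 0.11 (adjusted p = 4.6e-08). In KO cells Apoa4 fell by 0.70 ± 0.11 (adjusted p = 5.8e-05), from between 6930 and 9427 to between 4418 and 5964. Both calls held in all 15 alternatives of each comparison. In WT cells 1 member was higher and 3 lower, with 11.8% of tested genes called (5.76% higher, 6.09% lower). Mttp was the 1 that rose (0.45 ± 0.10, adjusted p = 0.0030). Apoa1 fell by 0.35 ± 0.10 (adjusted p = 0.023) and Apom by 0.38 ± 0.13 (adjusted p = 0.042). The Apoa1 call was lost without TGFb WT library 2, CM WT library 1 or CM WT library 2, and the Apom call in 10 of 15 alternatives, among them any 1 of the 3 TGFb WT libraries, CM WT library 1 and CM WT library 2. The count of 4 members fell to 2 without TGFb WT library 2, CM WT library 1 or CM WT library 2 and rose to 6 without CM WT library 3. With equal totals the split was 2 higher and 1 lower, as Apob then rose (0.32, adjusted p = 0.039; 0.39 and 0.041 with quantile normalization), and over all tested genes 832 higher and 880 lower became 1102 and 626. In KO cells 0 members were higher and 2 lower (10.6% of tested genes called, 5.2% higher and 5.39% lower), Apoa4 and Apoa5. The count was 1 without TGFb KO library 3, and with equal totals 751 higher and 779 lower over all tested genes became 1243 and 492. Apoa5 fell by 0.50 ± 0.12 (adjusted p = 0.0059), a call lost without TGFb KO library 3 (-0.40, adjusted p = 0.061).

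**Figure D4:**
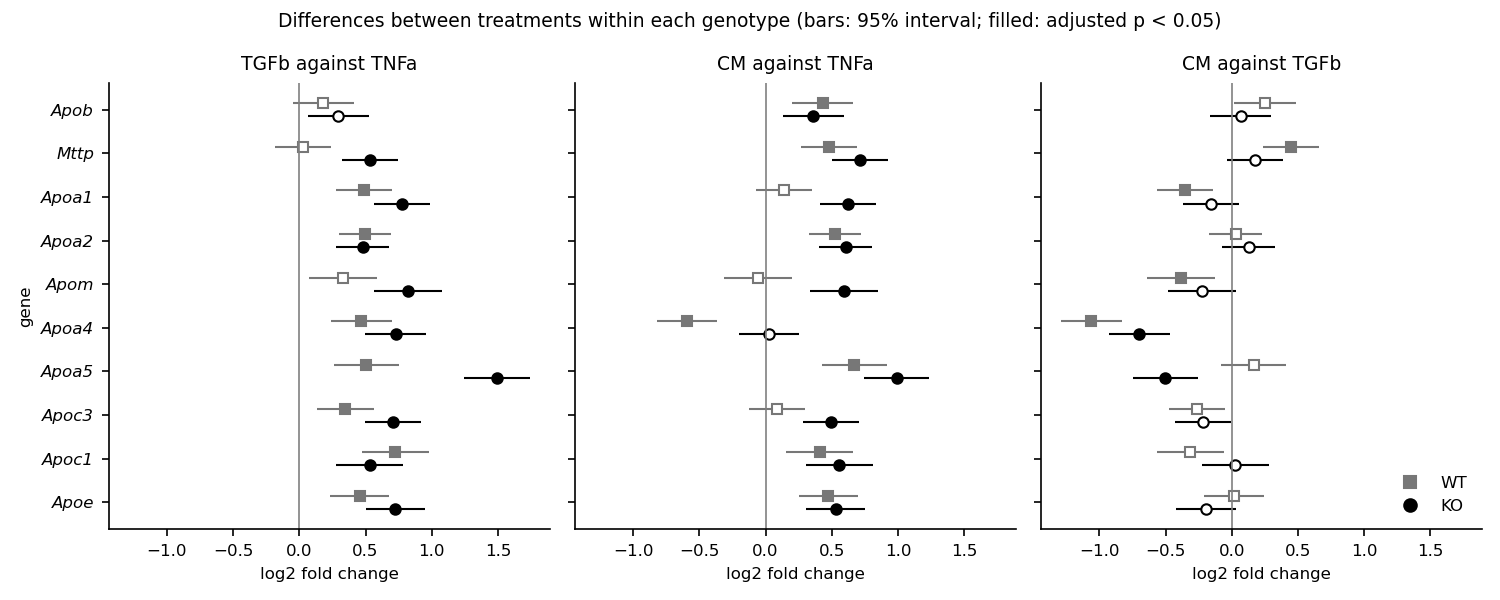
Log2 fold change (x axes) of TGFb against TNFa, CM against TNFa and CM against TGFb for each gene (y axis). Squares are WT and circles KO cells, bars are 95% intervals, and filled symbols have an adjusted p below 0.05. Apoa4 lies at -1.06 in WT and -0.70 in KO cells for CM against TGFb, the lowest values of that panel.

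Genes that work beside the members were read from lists written from general knowledge of lipoprotein biology. The list counts used the deposited scaling only. Of all tested genes, 4.19% rose and 3.7% fell in KO cells with TNFa, 7.25% and 4.95% with TGFb, and 5.62% and 3.77% with CM. In a list of 23 genes of particle assembly and secretion, 1 rose and 4 fell in KO cells with TNFa, 7 rose and 0 fell with TGFb, and 3 rose and 0 fell with CM. A1cf, the partner of the enzyme that edits Apob RNA, rose with TNFa (0.69 ± 0.13, adjusted p = 4.9e-04) and TGFb (0.84 ± 0.13, 1.3e-05). Sar1b, a coat protein needed for the export of large particles from the endoplasmic reticulum, rose with TGFb (0.58 ± 0.13, adjusted p = 0.0024) and CM (0.69 ± 0.13, 5.5e-04), the second call being lost in a fit of only the CM groups. Aadac, a triglyceride hydrolase that feeds VLDL assembly, rose with CM by 0.69 ± 0.13 (adjusted p = 6.1e-04). Lpcat3, which remodels membrane phospholipids, fell with TNFa by 0.62 ± 0.13 (adjusted p = 0.0017). Dgat2, an enzyme of triglyceride synthesis, rose with TGFb by 0.50 ± 0.10 (adjusted p = 4.5e-04), as did Cideb, a protein of VLDL lipidation, by 0.90 ± 0.20 (adjusted p = 0.0017). The list's median was -0.18 with TNFa, 0.09 with TGFb and -0.05 with CM, where that of tested genes was 0.02, -0.01 and -0.01.

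Lpl, which encodes lipoprotein lipase, rose in KO cells with TNFa (0.97 ± 0.20, adjusted p = 0.0018, lost in a fit of only the TNFa groups) and TGFb (1.05 ± 0.20, adjusted p = 4.1e-04). Macrophages also express Lpl, and the macrophage markers given above were higher in the same libraries. Their part in the rise of Lpl was not tested.

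Of 10 genes of HDL formation, 1 rose and 0 fell with TNFa, 4 rose and 1 fell with TGFb, and 4 rose and 1 fell with CM. Over all tested genes 7.89%, 12.2% and 9.39% were called. Abcg1, a cholesterol exporter that macrophages express strongly, rose under each treatment, by 1.54 ± 0.33, 1.19 ± 0.33 and 1.47 ± 0.33 (adjusted p = 0.0024, 0.014 and 0.0029), and its TGFb call was lost without TGFb KO library 3 (1.13, adjusted p = 0.055) or TGFb WT library 2 (0.94, adjusted p = 0.099). Its level was low, with means of 70.4 in WT and 195 in KO libraries with CM, and the part of macrophages was not tested. Scarb1, the HDL receptor of hepatocytes, rose with TGFb by 0.62 ± 0.12 (adjusted p = 4.9e-04). Pon1, an HDL-bound enzyme, rose with TGFb by 0.46 ± 0.09 (adjusted p = 7.4e-04). Abca1, which hands cholesterol to apolipoprotein A1, fell with CM by 0.40 ± 0.09 (adjusted p = 0.0043), a call lost in a fit of only the CM groups.

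Of 10 uptake genes, 0 rose and 2 fell with TNFa, 1 rose and 1 fell with TGFb, and 0 rose and 2 fell with CM. Over all tested genes 7.89%, 12.2% and 9.39% were called. Vldlr, the VLDL receptor, fell with TNFa by 0.46 ± 0.08 (adjusted p = 1.1e-04) and TGFb by 0.43 ± 0.08 (adjusted p = 1.0e-04). With TNFa it ran from 12010 to 12849 in WT and 8696 to 9362 in KO libraries. Its fall with CM, by 0.25 ± 0.08 (adjusted p = 0.029), was lost without CM KO library 1 (adjusted p = 0.12) or 3 (0.093) and without CM WT library 2 (0.074) or 3 (0.081). Of 7 other apolipoproteins, 6 were tested, and 0 changed with TNFa, 3 rose with TGFb and 3 rose with CM. Apof, which acts on lipid exchange between particles, rose with CM by 0.62 ± 0.10 (adjusted p = 1.1e-04).

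Of 21 tested transcription factors of lipid and hepatocyte genes, 1 rose and 3 fell in KO cells with TNFa, 6 rose and 1 fell with TGFb, and 0 rose and 1 fell with CM. Over all tested genes 7.89%, 12.2% and 9.39% were called. Mlxipl, the carbohydrate-responsive factor ChREBP, rose with TGFb by 0.90 ± 0.16 (adjusted p = 1.2e-04), from between 442 and 510 in WT to between 713 and 1030 in KO libraries. Srebf1, which drives fatty acid synthesis, rose with TGFb by 0.50 ± 0.10 (adjusted p = 8.2e-04). Foxo1, a factor held back by insulin that is known to drive Mttp and Apoc3, fell with CM by 0.85 ± 0.11 (adjusted p = 1.6e-06), from between 2298 and 2754 to between 1270 and 1525. In those same CM libraries Apoc3 rose, and Mttp did not pass. The part of Foxo1 in either gene was not tested.

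Between treatments, A1cf, on the assembly list, rose from TNFa to TGFb by 1.44 ± 0.13 in WT and 1.59 ± 0.13 in KO cells (adjusted p = 1.1e-09 and 5.6e-11). In that contrast 8 of the 23 assembly genes rose and 1 fell in WT cells, and 14 rose and 0 fell in KO cells. Over all tested genes 8.06% rose and 5.33% fell in WT cells, and 12.3% and 10.1% in KO cells. With CM against TNFa, 6 of these assembly genes rose and 1 fell in WT and 12 rose and 0 fell in KO cells. The shares of tested genes were 6.81% higher and 5.46% lower in WT cells, and 8.38% and 4.32% in KO cells. Clu, an apolipoprotein also called clusterin, rose with TGFb against TNFa by 1.63 ± 0.09 in WT cells (adjusted p = 2.1e-13) and fell with CM against TGFb by 1.39 ± 0.09 (adjusted p = 8.2e-12). Among the factors, Creb3l3, which is known to drive Apoa4 and Apoa5, rose with TGFb against TNFa by 0.97 ± 0.12 in WT and 1.21 ± 0.12 in KO cells (adjusted p = 1.0e-06 and 6.4e-09). Foxa3, a liver pioneer factor, rose by 0.96 ± 0.14 and 1.52 ± 0.14 (adjusted p = 5.0e-06 and 5.8e-10). With CM against TNFa, Creb3l3 was also called higher in both genotypes. Its mean went from 1188 to 1630 in WT cells, a call lost in 1 of 15 alternatives, and from 937 to 1863 in KO cells. In that contrast Apoa5 rose in both genotypes, while Apoa4 fell by 0.59 ± 0.11 in WT cells and stood at 0.03 ± 0.11 in KO cells. The part of Creb3l3 in these genes was not tested.

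Members were also set against each other over the 18 libraries, which share the 6 groups, so these correlations describe group differences as much as any other spread. The highest Pearson correlation of log2 values was between Apoa2 and Apoc1 (0.92), which lie on different chromosomes, and the lowest between Apoa4 and Apob (-0.29). Within the chromosome 9 cluster, Apoc3 and Apoa5 reached 0.83 and Apoa1 and Apoa5 0.47. Apoc1 and its neighbour Apoe reached 0.74. Within groups the same pairs gave other values. These were 0.54 for Apoa2 and Apoc1, -0.55 for Apoa4 and Apob, and 0.28 for Apoc1 and Apoe. In the chromosome 9 cluster they were 0.07 for Apoc3 and Apoa5 and 0.33 for Apoa1 and Apoa5. Of all tested genes outside the set, Mup17 (0.94), Mup15 (0.94) and Serpina3k (0.93) were most alike to Apoa1. Mup genes are near-identical copies, so reads may be split among them with uncertainty. Slc39a14 (0.88), Errfi1 (0.88) and Stra6l (0.88) were most alike to Apob, Junb (0.95), Las1l (0.95) and Rflnb (0.93) to Apoa4, and F10 (0.90) and Stard4 (0.90) to Mttp.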

How the data were processed

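The 18 libraries were total RNA depleted of ribosomal RNA, per the labels' protocols. The submitters' processing notes name STAR 2.7.8a, Partek, DESeq2 and the build mm39 but give no settings. What the authors deposited is a table of protein-coding genes with a normalized signal for every library, made by DESeq2 scaling per its name. Whole reads were not recovered from it, so no count test was run.

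The analysis used log2(value + 1), which understates changes of low genes. Of 16873 genes, the 14455 that reached 10 in 3 or more libraries entered 1 limma-trend model of 6 group means (limma 3.58.1, R 4.3.3) with no block, with Benjamini-Hochberg adjustment over tested genes. Depth was estimated as summed values divided by the value of 1 read in each library (0.688 to 1.25), taken from the steps between low values. No label gives a batch, and all per-sample columns were mapped to a library. Replicate numbers did not mark shared deviations, so libraries were not paired.

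All members are named. From each other list up to 4 called genes with the smallest p could be named in a comparison, and for Apoa1, Apob, Apoa4 and Mttp the 3 genes most alike. A few genes that this rule names are not reported here. Mtdh was read as the check of genotype. The members and lists were chosen with earlier results of these data known. Promoters come from RefSeq (GRCm38.p6) and transcript lengths from GENCODE M21. They were used without moving coordinates between builds. The alternatives changed the pseudocount (0.5 or 5), the filter (none, or a mean of 50), the scaling (median of ratios recomputed, equal totals, quantile) or the fit (only the groups compared, a replicate block, each library left out). Figures were drawn with Python 3.11.15, NumPy 2.4.6, pandas 2.3.3 and matplotlib 3.10.9.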

Additional observations from a re-analysis of the deposited data

Results flagged for a closer look

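The KO effect on Apoa5 differed between TGFb and TNFa by 0.98 ± 0.17 (limma adjusted p = 0.0033), with all 3 KO libraries above all 3 WT libraries with TGFb and overlapping groups with TNFa. Genes of the surrounding lists also differed in their KO effect between treatments by the same test of the difference. Between TGFb and TNFa, Mlxipl differed by 1.14 ± 0.22 (adjusted p = 0.0075), Dgat2 by 0.77 ± 0.14 (0.0042), Srebf1 by 0.69 ± 0.14 (0.013), Pon1 by 0.59 ± 0.13 (0.021) and Pla2g12b, a factor of VLDL secretion, by 1.12 ± 0.29 (0.0497). The Mlxipl and Dgat2 calls held in all 20 alternatives. That of Srebf1 was lost with equal totals and without TNFa WT library 3 or TGFb WT library 1, that of Pon1 in 8 of 20 alternatives and that of Pla2g12b in 14. The hepatocyte markers Ttr and Cps1 differed by 0.90 and 0.61, the first lost without TGFb KO library 1 and the second with quantile normalization.

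Between CM and TNFa, the KO effect on Ces1d, a hepatic carboxylesterase, differed by 0.48 ± 0.12 (adjusted p = 0.048), a call lost in 14 of 20 alternatives. Between CM and TGFb, Mlxipl differed by -1.05 ± 0.22 (adjusted p = 0.024), Foxo1 by -0.67 ± 0.15 (0.041) and Abca1 by -0.60 ± 0.13 (0.029). These 3 calls were lost in 8, 11 and 9 of 20 alternatives, most of which leave out 1 library.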

How the results depend on the processing

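Of 100 member results (10 genes in 10 comparisons), 62 were called. Over all alternatives their calls were kept 906 times, lost 111 times and reversed once, for Apob with CM against TNFa in KO cells, which became -0.13 with quantile normalization. Counts of called members moved by over 1.5 times as follows. Equal totals gave 3 with TGFb (KO against WT), fits of only the groups compared gave 3 with CM (KO against WT) and 2 for CM against TGFb in WT, and the cause was not tested. For the average and the F-test that alternative is the same fit and was not run. Leaving out 1 library gave 2 to 3 called members with TNFa, 2 to 7 with TGFb, 3 to 5 with CM, 6 to 8 for the average and 1 to 4 for the F-test. Within WT it gave 6 to 8 for TGFb against TNFa, 6 to 7 for CM against TNFa and 2 to 6 for CM against TGFb, and within KO 9 to 10, 8 to 9 and 1 to 2.

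Signs of results that were not called turned in 33 instances. With equal totals Apoc3 with TNFa was 0.022, Apoa4 with TGFb -0.038, Mttp (TGFb against TNFa, WT) -0.089 and Apoa4 (CM against TNFa, KO) -0.13. With quantile normalization these were 0.043 for Apoc3 with TNFa, -0.10 for Apob and -0.021 for Mttp (TGFb against TNFa, WT), -0.34 for Apob (TGFb against TNFa, KO) and -0.022 for Apoa4 (CM against TNFa, KO). With 1 library left out, KO against WT ranged from -0.033 to 0.12 for Apoa5, -0.098 to 0.058 for Apoc3 and -0.019 to 0.21 for Apoe with TNFa, from -0.027 to 0.19 for Apoa4 and -0.17 to 0.027 for Apob with TGFb, and from -0.17 to 0.071 for Apoa1 with CM. In WT cells TGFb against TNFa ranged from -0.062 to 0.11 for Mttp. CM against TNFa ranged from -0.0024 to 0.24 for Apoa1, -0.00030 to 0.15 for Apoc3 and -0.20 to 0.098 for Apom. CM against TGFb ranged from -0.055 to 0.11 for Apoa2 and -0.055 to 0.079 for Apoe. In KO cells CM against TNFa ranged from -0.089 to 0.13 for Apoa4, and CM against TGFb from -0.043 to 0.15 for Apob and -0.048 to 0.12 for Apoc1.

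No pair of same-numbered libraries deviated together by more than 0.1 (0 of 9 pairs of KO with WT, 0 of 18 pairs of treatments, from -0.066 to 0.054), so the numbers show no pairing. With the replicate block, called members numbered 3, 7 and 5 with TNFa, TGFb and CM (KO against WT), 7 for the average and 1 for the F-test. They numbered 7, 7 and 3 in WT and 9, 9 and 2 in KO cells for TGFb against TNFa, CM against TNFa and CM against TGFb. With 3 libraries a group the 95% interval of a member's change reached 0.20 to 0.26 to either side on the log2 scale, and the smallest change called between 2 groups was 0.35. The lowest estimate for a member was 674 reads, and the effect of depth on the calls was not tested.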
